A study of Mus musculus with 6 samples.

Results

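The genes described here are the 5 that encode receptors for ligands of the glial cell line-derived neurotrophic factor (GDNF) family in the mouse, *Gfra1*, *Gfra2*, *Gfra3*, *Gfra4* and *Ret*. They were taken by gene name from the 53657 names in the count table of each sample, and all 5 passed the expression filter that kept 19656 genes for testing. The data came from 6 adult mice, 3 WT and 3 MUT, with 1 RNA-seq library each. Undifferentiated spermatogonia (Aundiff), the germ cell population that contains the spermatogonial stem cells, were sorted as tdTomato+ cells that stained brightly for the surface protein MCAM. All 6 mice carried *Gfra1-creERT2* and a floxed tdTomato reporter at *Rosa26* (*tdTom fl/-*), and all received repeated courses of tamoxifen, with sorting 3 months later. MUT mice also carried *FR-Hras G12V fl/-*, an allele in which Cre removes a wild-type copy of *Hras* and leaves 1 copy encoding the G12V mutation, and WT mice were littermates without it. The design holds no sample without the Cre allele or without tamoxifen, the share of cells with a recombined *Hras* allele was not analysed here, and neither was any effect of the Cre insertion on the *Gfra1* copy that carries it.

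GDNF is secreted by somatic cells of the testis and acts on spermatogonia through a receptor with separate binding and signaling parts. A GFRA protein, held to the outside of the membrane by a lipid anchor, binds the ligand, and the complex then brings together RET, a receptor tyrosine kinase that spans the membrane and activates RAS, PI3 kinase and SRC family pathways. GFRA1 prefers GDNF, GFRA2 neurturin, GFRA3 artemin and GFRA4 persephin. GDNF signaling through GFRA1 and RET is required for self-renewal of mouse spermatogonial stem cells, and *Gfra1* is a standard marker of Aundiff. HRAS, the protein changed in MUT, acts downstream of RET and of the FGF receptors. *Gfra1* had a further role in this design, since its promoter drove the Cre that labeled the cells, and the sorted cells were those that had used that promoter or descended from cells that had.

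Because GFRA genes are related, the first question was whether a sequenced read could be assigned to 1 of them. Reads were 50 bases long, and none of the 50-base windows in the annotated transcripts of 1 receptor gene occurred in those of another. The closest stretch of coding sequence among the 5 genes lay between *Gfra1* and *Gfra2*, with 5 mismatches in 50 bases, and the other pairs had at least 11. This stretch is shown because it is where a read of 1 gene comes nearest to the other (GENCODE vM21 transcripts on GRCm38, 5′ to 3′ on the coding strand, with the mismatched bases in capitals). The *Gfra1* stretch lies at chr19:58300505-58300554 on the minus strand and the *Gfra2* stretch at chr14:70925757-70925806 on the plus strand, each within 1 coding exon.
Gfra1: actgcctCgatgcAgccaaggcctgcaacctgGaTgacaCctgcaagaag
Gfra2: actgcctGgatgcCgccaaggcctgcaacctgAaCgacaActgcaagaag

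*Gfra1* spans 58235604 to 58455909 of chromosome 19 (GRCm38, minus strand) with 5476 bases of exon, of which 416 are shared with a gene on the opposite strand, AC102457.2. The authors counted without regard to strand and left out fragments that fit several genes, so the *Gfra1* count is missing fragments from that stretch, which is 7.60% of its exon bases. *Gfra4* (chromosome 2, 131039632 to 131043088, minus strand, 2165 bases of exon) shares 80 bases with the microRNA gene *Mir6973b*. *Gfra2* (chromosome 14, 70890120 to 70979838, plus strand, 3539 bases of exon), *Gfra3* (chromosome 18, 34689903 to 34720387, minus strand, 1992 bases of exon) and *Ret* (chromosome 6, 118151745 to 118197718, minus strand, 6763 bases of exon) share none. The 2 annotated *Ret* transcripts were counted together and their levels cannot be separated in these files.

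Libraries held between 22729292 and 23550433 counts, at which 3 counts correspond to 0.127 to 0.132 CPM, that is, counts scaled to a fixed library size. The 10 markers of undifferentiated spermatogonia summed to between 2431 and 2974 CPM and the germ cell markers *Ddx4* and *Dazl* to between 1328 and 1470 CPM, while 4 endothelial markers summed to at most 38.3 CPM and 6 Sertoli cell markers to at most 36.7 CPM. Transcripts of other cells were nevertheless present, with 4 macrophage markers at 381 to 565 CPM in WT and 315 to 415 CPM in MUT, and 4 spermatid markers at 932, 680 and 1172 CPM in WT and 471, 507 and 893 CPM in MUT, lower in MUT in each same-numbered pair. When edgeR took the numbers as a block, the spermatid gene *Tnp1* was called (log2 fold change -0.59 without the block, adjusted p = 0.0794 with it and 0.998 without it). WT replicate 3 had the highest sum of both lists, and it stood apart from the other WT libraries, with a chi-square per degree of freedom over genes of 27.6 and 20.5 against replicates 1 and 2, which differed from each other by 5.68. MUT replicate 3 had 67.3 CPM of 6 Leydig cell markers, where the other libraries had 12.9 to 21.1 CPM. *Hras*, the gene altered in MUT, overlapped between the groups with 1300, 1407 and 1542 counts in WT and 1600, 1594 and 1426 counts in MUT, and counts over the whole gene do not tell its alleles apart. Replicate numbers in each group are given in the order 1, 2 and 3 throughout.

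*Ret* was the most abundant of the receptor genes and *Gfra1* the second, and *Gfra4*, *Gfra3* and *Gfra2* followed at lower levels. Levels of different genes are compared here as CPM per kilobase of exon, since a longer transcript yields more fragments. *Ret* had 65.4, 57.3 and 40.8 CPM per kilobase in WT and 59.2, 44.8 and 44.5 in MUT. *Gfra1* had 26.9, 26.7 and 20.1 CPM per kilobase in WT and 24.3, 18.9 and 20.9 in MUT. *Ret* therefore exceeded *Gfra1* in all 6 samples, and the lowest level of either gene in WT was that of replicate 3.

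The mean *Ret* level over the 6 samples was 52.0 ± 9.93 CPM per kilobase (SD, n = 6), above 95.6% of the tested genes, and that of *Gfra1* was 22.97 ± 3.48 (SD, n = 6), above 85.9% of them. *Gfra4*, the receptor for persephin, stood at 5.72 ± 0.443 CPM per kilobase (SD, n = 6), close to the middle of the tested genes, with 57.6% of them below it. *Gfra3*, the receptor for artemin, stood at 3.69 ± 0.517 (SD, n = 6). *Gfra2*, the receptor for neurturin, was the least abundant at 1.66 ± 0.390 (SD, n = 6), with 34.9% of tested genes below it. Within samples *Ret* exceeded *Gfra1* by 2.25-fold (geometric mean, 2.03 to 2.44 over samples), *Gfra1* exceeded *Gfra4* by 3.98-fold (3.34 to 5.02), *Gfra4* exceeded *Gfra3* by 1.56-fold (1.24 to 1.84) and *Gfra3* exceeded *Gfra2* by 2.26-fold (1.64 to 4.17). Each of these 4 steps had the same direction in 6 of 6 samples (exact two-sided sign-flip permutation test over the samples, p = 0.031 for each, the smallest that 6 samples allow, and 0.031 after Benjamini-Hochberg adjustment over the 4 steps). The order was taken from the mean levels in these same 6 samples, so these tests show only that each step kept 1 direction. The step from *Gfra3* to *Gfra2* depended on exon length, since the log2 difference of 1.18 per kilobase became 0.35 without division by length (exact sign-flip permutation test, p = 0.21875).

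**Figure D1:**
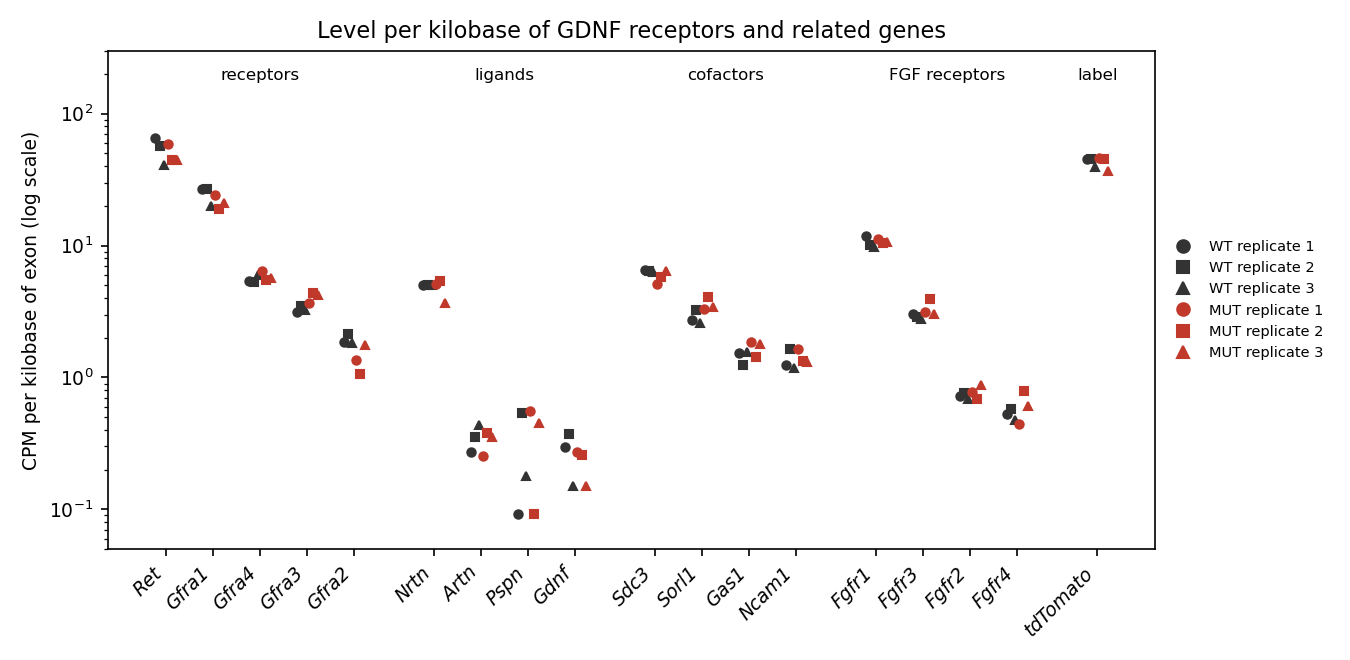
Level of the receptor genes, their ligands, other GDNF-binding or RET-associated genes, the FGF receptors and tdTomato in each of the 6 samples, in CPM per kilobase of exon on a log axis (black, WT; red, MUT; symbols give the replicate number). *Ret* lies above *Gfra1* in all 6 samples, and both lie above *Gfra4*, *Gfra3* and *Gfra2*; a library with 0 counts would not be drawn, and none of the genes shown had one.

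The FGF receptors, another family of growth factor receptors that can signal through RAS, give a scale for these levels. The mean level of *Fgfr1* was 10.7 CPM per kilobase, of *Fgfr3* 3.14, of *Fgfr2* 0.753 and of *Fgfr4* 0.572. *Ret* exceeded *Fgfr1* by 4.80-fold and *Fgfr3* by 16.4-fold (geometric means of within-sample ratios per kilobase). It exceeded *Fgfr2* by 68.3-fold and *Fgfr4* by 91.3-fold. All 4 differences had the same direction in 6 of 6 samples (p = 0.031 each by the exact sign-flip permutation test, also after adjustment over the 4). *Ret* was the most abundant receptor gene in these same samples, so these tests show only that each difference kept 1 direction. By mean level *Gfra1* (22.97) was also above *Fgfr1*, while *Gfra4* (5.72), *Gfra3* (3.69) and *Gfra2* (1.66) were below it.

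Of the ligands, 3 had few counts in these libraries and *Nrtn* was at the level of the less abundant receptor genes. *Gdnf* had 25, 32 and 13 counts in WT and 23, 22 and 13 in MUT. *Artn*, encoding artemin, had between 14 and 25 counts in every sample, and *Pspn*, encoding persephin, between 1 and 6, too few to pass the filter. *Nrtn*, encoding neurturin, was the most abundant ligand with 118, 121 and 122 counts in WT and 120, 126 and 88 in MUT, and per kilobase its mean of 4.88 CPM lay between those of *Gfra4* and *Gfra3* and above that of its receptor *Gfra2*. *Gfral*, encoding the receptor for GDF15 that also signals through RET, had 0 counts in all 6 samples, which allows up to 0.132 CPM in the shallowest library, for counting error only. *Ncam1*, encoding an adhesion molecule that can bind GDNF with GFRA1 in the absence of RET, had 1.40 ± 0.207 CPM per kilobase (SD, n = 6).

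MUT and WT were then compared, to learn whether the receptors differed between cells with and without the *Hras* mutation. None of the 5 receptor genes passed an FDR of 0.1 in edgeR's quasi-likelihood test, at which 2 of 19656 genes were called (0.0102%), both lower in MUT. With the replicate number as a block 13 genes were called, and again none was a receptor gene. The adjusted p of each receptor gene was 0.998 in the edgeR fit without the block. The exact permutation tests used below for ratios have a separate limit. With 3 samples against 3 their smallest p is 0.1, a limit that the edgeR test does not have. In these bulk samples fewer cells with a transcript and less of it per cell cannot be told apart.

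*Gfra1* had 3375, 3424 and 2604 counts in WT and 3041, 2387 and 2679 in MUT. WT replicates 1 and 2 were the highest of the 6 samples and MUT replicate 2 was the lowest. The groups overlapped because WT replicate 3 lay below MUT replicates 1 and 3. After normalization WT stood at 134.6 ± 21.3 and MUT at 117.0 ± 14.9 CPM (mean ± SD, n = 3 each). The log2 fold change of -0.20 (SE 0.131, 95% confidence interval -0.50 to 0.097, unadjusted p = 0.159 from edgeR) was within the spread between replicates. Its size moved with single libraries, to -0.33 without WT replicate 3 (unadjusted p = 0.00982 and adjusted p = 0.999 from edgeR) and to -0.31 without MUT replicate 1, and to -0.14 without WT replicate 1 and without MUT replicate 2.

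*Ret* had 10127, 9069 and 6526 counts in WT and 9154, 6993 and 7046 in MUT. The highest and the lowest of the 6 samples were both WT, and the MUT samples lay between them. After normalization WT stood at 368.6 ± 85.0 and MUT at 334.9 ± 56.5 CPM (mean ± SD, n = 3 each), with a log2 fold change of -0.14 (SE 0.178, 95% confidence interval -0.55 to 0.27, unadjusted p = 0.458 from edgeR). Single libraries of both groups moved this value. It was -0.31 without WT replicate 3 (unadjusted p = 0.0415 and adjusted p = 0.999 from edgeR), -0.29 without MUT replicate 1, -0.086 without MUT replicate 2, -0.068 without MUT replicate 3 and 0.0047 without WT replicate 1. WT replicate 3 was the library with the highest macrophage and spermatid sums, and the part of those cells in its *Ret* and *Gfra1* levels was not tested.

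*Gfra2* and *Gfra3* were the receptor genes whose groups did not overlap, and they differed in opposite directions. They reached at most 7.56 and 8.76 CPM in any sample, below the summed macrophage markers in every library. The 4 Schwann cell and nerve markers also summed to more, 27.3 to 31.0 CPM in WT and 29.1 to 32.2 CPM in MUT. The part of other cells in the *Gfra2* and *Gfra3* levels was not tested. *Gfra2* had 150, 177 and 153 counts in WT and 110, 86 and 145 in MUT, so that every MUT sample was below every WT sample, with MUT replicate 3 close to the lowest WT sample. After normalization WT stood at 6.86 ± 0.610 and MUT at 4.91 ± 1.24 CPM (mean ± SD, n = 3 each). The log2 fold change was -0.48 (SE 0.203, 95% confidence interval -0.95 to -0.017, unadjusted p = 0.0437 from edgeR). It was -0.68 without MUT replicate 3 (unadjusted p = 0.00702, adjusted p = 0.280 from edgeR), the lowest adjusted p of *Gfra2* over 13 other settings, the highest being 0.999997. Without MUT replicate 2 it was -0.33 (unadjusted p = 0.133 from edgeR), and in each of the 5 fits without another library than MUT replicate 3 the unadjusted p was above 0.05.

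*Gfra3* had 142, 163 and 154 counts in WT and 166, 202 and 197 in MUT, with all MUT samples higher than any WT sample, narrowly for MUT replicate 1. After normalization WT stood at 6.56 ± 0.383 and MUT at 8.15 ± 0.789 CPM (mean ± SD, n = 3 each). The log2 fold change was 0.31 (SE 0.142, 95% confidence interval -0.012 to 0.64, unadjusted p = 0.0575 from edgeR). Groups that did not overlap were found for 7.69% of the tested genes, 3% lower and 4.69% higher in MUT, and an unadjusted p under 0.05, reached by *Gfra2* alone among the receptor genes, for 2.78% (1.34% higher and 1.44% lower). With 2 and 1 of 5 genes these counts are too small to set the receptor genes apart from those shares. They also moved with single libraries, chosen after seeing the data. Without WT replicate 3 the groups of 4 of 5 receptor genes did not overlap, beside 19% of all genes tested. There 2 of 5, *Gfra1* and *Ret*, both lower, had an unadjusted p under 0.05 in edgeR, beside 3.63%. Without MUT replicate 3 the counts were 2 and 1 of 5, beside 26.1% and 8.64%. No receptor gene was called in either fit.

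*Gfra4* had 266, 270 and 308 counts in WT and 320, 272 and 290 in MUT. The groups overlapped, WT at 12.1 ± 0.830 and MUT at 12.7 ± 1.13 CPM (mean ± SD, n = 3 each), and the log2 fold change was 0.077 (SE 0.123, 95% confidence interval -0.20 to 0.36, unadjusted p = 0.546 from edgeR). It was -0.0024 without MUT replicate 1. With all 6 samples the 95% confidence intervals of the 5 receptor genes lay within 1 of 0 on the log2 scale, that is within a 2-fold change, as was the case for 81.6% of the tested genes. The *Gfra2* interval reached down to 0.519-fold, and it passed the 2-fold bound when 1 library was left out, at -1.08 without WT replicate 1, -1.05 without WT replicate 3, -1.05 without MUT replicate 1 and -1.12 without MUT replicate 3. The intervals of the other 4 genes stayed within 2-fold in all 6 such fits.

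**Figure D2:**
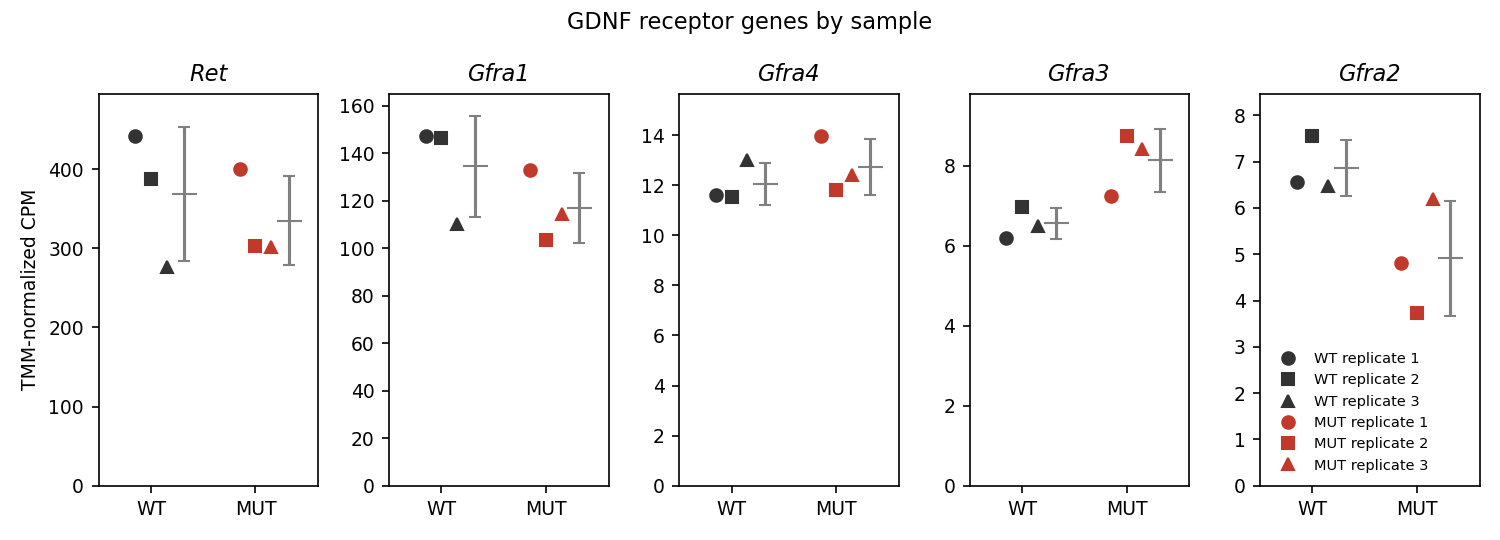
TMM-normalized CPM of each receptor gene in the WT (black) and MUT (red) samples, on axes that start at 0, with the group mean and SD (n = 3) in gray beside the points. The groups overlap for *Ret*, *Gfra1* and *Gfra4*, all MUT samples are below all WT samples for *Gfra2*, and all are above for *Gfra3*.

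Ratios between genes of the same sample do not depend on how libraries are scaled. The ratio of *Ret* to *Gfra1* per kilobase was 2.43, 2.14 and 2.03 in WT and 2.44, 2.37 and 2.13 in MUT. The groups overlapped almost completely, and their log2 values differed by 0.073 (p = 0.6 in an exact two-sided permutation test), with 0.017 without WT replicate 3 and 0.15 without WT replicate 1 as the ends of the range with 1 library left out. *Gfra1* made up 72.3%, 70.9% and 64.4% of the summed per-kilobase level of the 4 *Gfra* genes in WT and 67.9%, 63.4% and 64.1% in MUT. The mean share was 4.04 percentage points lower in MUT, with overlap (69.19% ± 4.201 in WT and 65.2% ± 2.42 in MUT, SD, n = 3; exact two-sided permutation test, p = 0.2). Within the same-numbered pairs the share was lower in MUT and the *Ret* to *Gfra1* ratio higher in 3 of 3 pairs, each with p = 0.25 in an exact sign-flip permutation test, the smallest that 3 pairs allow. The share difference, MUT minus WT, was -6.43 points without WT replicate 3, -2.50 points without WT replicate 1 and -2.02 points without division by exon length. *Gfra4* made up between 14.1% and 19.3% of that sum, *Gfra3* between 8.36% and 14.8%, and *Gfra2* between 3.54% and 5.86%.

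The *Gfra1* transcript was also set against tdTomato, which was switched on by *Gfra1*-driven Cre but is itself transcribed from another locus. The ratio of *Gfra1* to tdTomato per kilobase was 0.599, 0.586 and 0.512 in WT and 0.523, 0.415 and 0.569 in MUT. The highest ratios were those of WT replicates 1 and 2 and the lowest that of MUT replicate 2, and the log2 difference was -0.18 (p = 0.3 in an exact two-sided permutation test). It was -0.050 without MUT replicate 2, the sample with the lowest ratio, and -0.28 without MUT replicate 3. Adjusted over these 3 ratios, the p-values were 0.6 for *Ret* to *Gfra1* and 0.45 for the other two. The tdTomato count itself was 1472, 1526 and 1329 in WT and 1520, 1503 and 1231 in MUT, a log2 fold change of -0.012 (SE 0.105).

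*Gfra1* and *Ret* varied together over the 6 samples (Pearson r = 0.92, exact permutation p = 0.0361, adjusted p = 0.397 over 11 pairs of genes; Spearman rho = 0.77, exact permutation p = 0.103, adjusted p = 0.481). The correlation was 0.93 without the 2 samples farthest from the median of *Gfra1* and 0.95 after the group means were removed. The points share their libraries, and the test did not pass adjustment. The other 10 pairs, those among the receptor genes and *Gfra1* with tdTomato, had Pearson r between -0.64 and 0.58 with exact permutation p of at least 0.151. *Gfra2* and *Gfra3*, which differed between the groups in opposite directions, had r = -0.64, and -0.012 once the group means were removed.

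**Figure D3:**
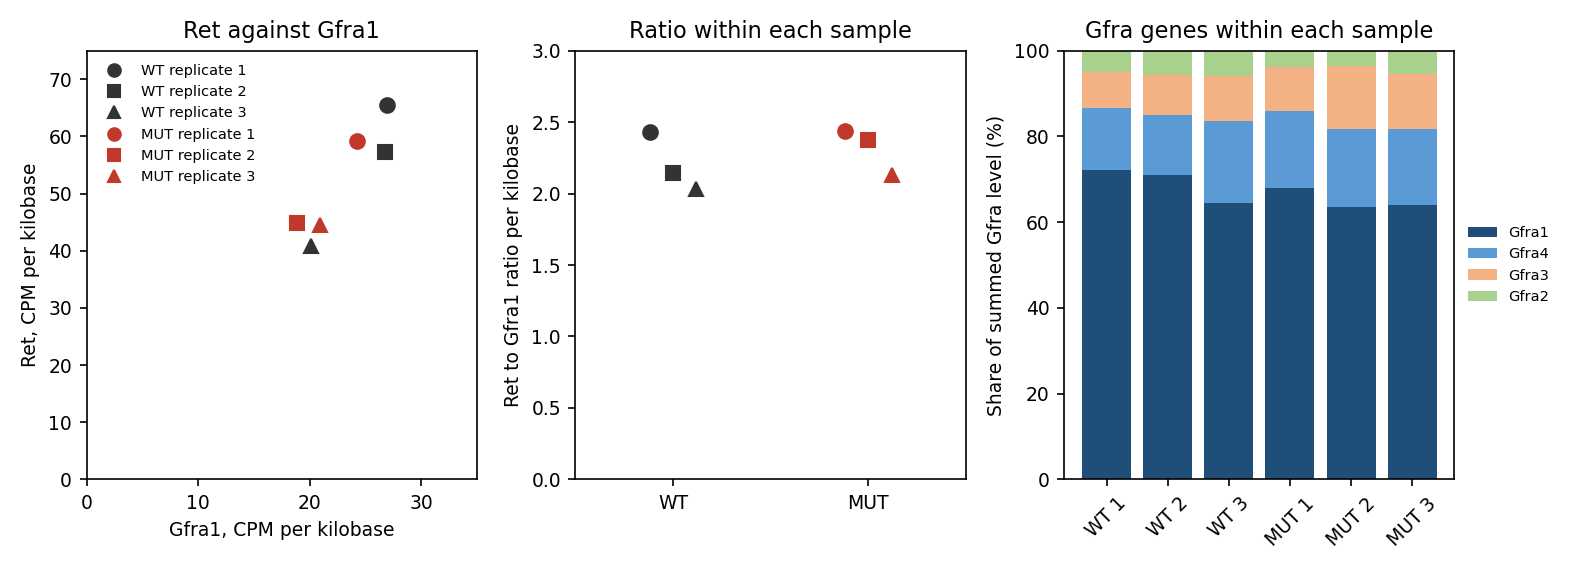
Left, *Ret* against *Gfra1* in CPM per kilobase of exon, 1 point per sample. Middle, the ratio of *Ret* to *Gfra1* in each sample, between 2.03 and 2.44. Right, the share of each *Gfra* gene in the summed per-kilobase level of the 4, with *Gfra1* between 63.4% and 72.3%.

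Other genes followed *Gfra1* and *Ret* at least as closely. Among 10582 other tested genes with a mean above 10 CPM, 115 (1.09%) had a Pearson r above 0.9 with *Gfra1*, and 79 were closer to it than *Ret* was. The 5 genes closest to *Gfra1* were *Tacc1* (r = 0.992), *Sltm* (r = 0.990), *Helb* (r = 0.989), *Pik3cd*, which encodes a catalytic subunit of PI3 kinase (r = 0.987), and *Tmem132e* (r = 0.984). For *Ret*, 235 genes (2.22%) had r above 0.9 and 155 were closer to it than *Gfra1*, led by *Epb41l4b* (r = 0.994), *Fnbp1l* (r = 0.991), *Mpzl1* (r = 0.990), *Elmsan1* (r = 0.989) and *Sestd1* (r = 0.987). These sets of 5 had no gene in common, and the values are descriptions over the same 6 libraries.

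The other genes of the pathway were read from the same fit, and none was called at the FDR of 0.1. All 3 ligands that could be tested had negative log2 fold changes, -0.26 for *Gdnf*, -0.098 for *Nrtn* and -0.11 for *Artn*, and their groups overlapped. These signs were not stable, since *Artn* was at 0.069 without WT replicate 3 and *Nrtn* at 0.055 without MUT replicate 3. Of 4 tested genes for other receptors and cofactors, 1 had non-overlapping groups, beside 7.69% of all tested genes. This was *Sorl1*, encoding a sorting receptor that binds GDNF and GFRA1. It had 30.7, 36.9 and 29.4 CPM in WT and 37.4, 45.8 and 38.8 CPM in MUT, a log2 fold change of 0.33 (unadjusted p = 0.0201 and adjusted p = 0.998 from edgeR). Without WT replicate 3 it was 0.27 (unadjusted p = 0.0572 from edgeR), and no gene of this list had an unadjusted p under 0.05. *Ncam1* was at 0.074 on the same scale, and *Sdc3*, encoding a proteoglycan that binds GDNF, was the most abundant of the list with 6.08 CPM per kilobase.

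Among adaptors and effectors of RET, 22 of 23 genes were tested, 14 with a positive and 8 with a negative log2 fold change, and the median was 0.035 beside 0.0066 over all tested genes, of which 10191 were positive and 9465 negative. That balance turned with single libraries, to 9 positive and 13 negative without WT replicate 3 (median -0.026) and to 19 and 3 without MUT replicate 3 (median 0.056). The most abundant were *Fyn* (33.4 CPM per kilobase), a SRC family kinase, the adaptor *Grb2* (26.8) and the phospholipase *Plcg1* (24.3). *Src*, encoding the kinase that RET activates, had 82.6, 79.3 and 72.0 CPM in WT and 101.9, 95.3 and 88.6 CPM in MUT, with no overlap between the groups. Its log2 fold change was 0.29 (SE 0.081, unadjusted p = 0.00643 and adjusted p = 0.998 from edgeR), and it was the gene of this list with an unadjusted p under 0.05. The adaptors *Dok4* (log2 fold change 0.20, unadjusted p = 0.178 from edgeR) and *Grb7* (0.097, unadjusted p = 0.257 from edgeR) also had groups that did not overlap, so 3 of 22 genes did, beside 7.69% of all tested genes. With all samples 1 of the 22 genes had an unadjusted p under 0.05, beside 2.78% of all tested genes. Without MUT replicate 3, the library with the highest Leydig cell sum, 2 genes of the list did, both higher in MUT. Of all genes tested there 8.64% did, 323 genes higher and 1413 lower. Without WT replicate 3 the list also had 2 such genes, 1 higher and 1 lower, beside 3.63% of all genes tested.

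All 6 negative regulators of RET had positive log2 fold changes, with a median of 0.073 and a range from 0.011 to 0.31. *Ptprf*, encoding a receptor phosphatase that can act on RET, was the most abundant at 61.9 CPM per kilobase, followed by the scaffold *Cd2ap* (29.8) and the ubiquitin ligase *Cbl* (15.8). The adaptor *Grb10* had the largest value of the list, 0.31, with overlapping groups (unadjusted p = 0.0474 and adjusted p = 0.998 from edgeR). WT replicate 3 had 367 CPM of *Ptprf*, where the other 5 samples had 581 to 642 CPM. Without that library 4 values were positive and 2 negative, the median was 0.011, *Grb10* was at 0.27 (unadjusted p = 0.108 from edgeR), and no gene had an unadjusted p under 0.05, which 3.63% of all genes tested without it had.

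Of 12 genes known to respond to GDNF in cultured spermatogonia, 8 had negative log2 fold changes, the median was -0.15, and none passed the FDR. The immediate early gene *Fos* (181 CPM per kilobase), the cyclin *Ccnd2* (35.3) and the transcription factor *Etv5* (33.7) were the most abundant, with overlapping groups. *Egr2*, an early response transcription factor, had 114.1, 115.4 and 104.8 CPM in WT and 100.7, 94.1 and 77.1 CPM in MUT, all MUT samples below all WT samples. Its log2 fold change was -0.30 (SE 0.101, unadjusted p = 0.0173 and adjusted p = 0.998 from edgeR). *T*, encoding brachyury, was the other gene with an unadjusted p under 0.05. Its log2 fold change was -0.39 (unadjusted p = 0.0439 and adjusted p = 0.998 from edgeR), with overlapping groups. Over all 19656 tested genes 2.78% had an unadjusted p under 0.05, 7.69% had groups that did not overlap, and 9465 values were negative. Without WT replicate 3, 1 gene of the list, *Egr2*, had an unadjusted p under 0.05, and 8 of the 12 values were negative there too. Without MUT replicate 3, *Egr2* was at -0.19 (unadjusted p = 0.0522 from edgeR), and 8 values were again negative. The 2 genes with an unadjusted p under 0.05 there were *T*, lower, and *Mycn*, higher at 0.25 (unadjusted p = 0.0274 from edgeR). Beside these lists, the sum of the differentiation markers *Kit*, *Stra8* and *Dmrtb1* was 339, 413 and 378 CPM in WT and 405, 556 and 428 CPM in MUT, highest in MUT replicate 2, the sample with the lowest *Gfra1* and *Gfra2* levels. Markers of later stages were not highest in that sample. Its 4 spermatid markers summed to 507 CPM, beside 680 to 1172 CPM in WT. Its 4 spermatocyte markers summed to 177 CPM, the lowest of MUT, beside 153 to 224 CPM in WT. The part of more differentiated cells in the *Gfra1* and *Gfra2* levels was not tested.

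**Figure D4:**
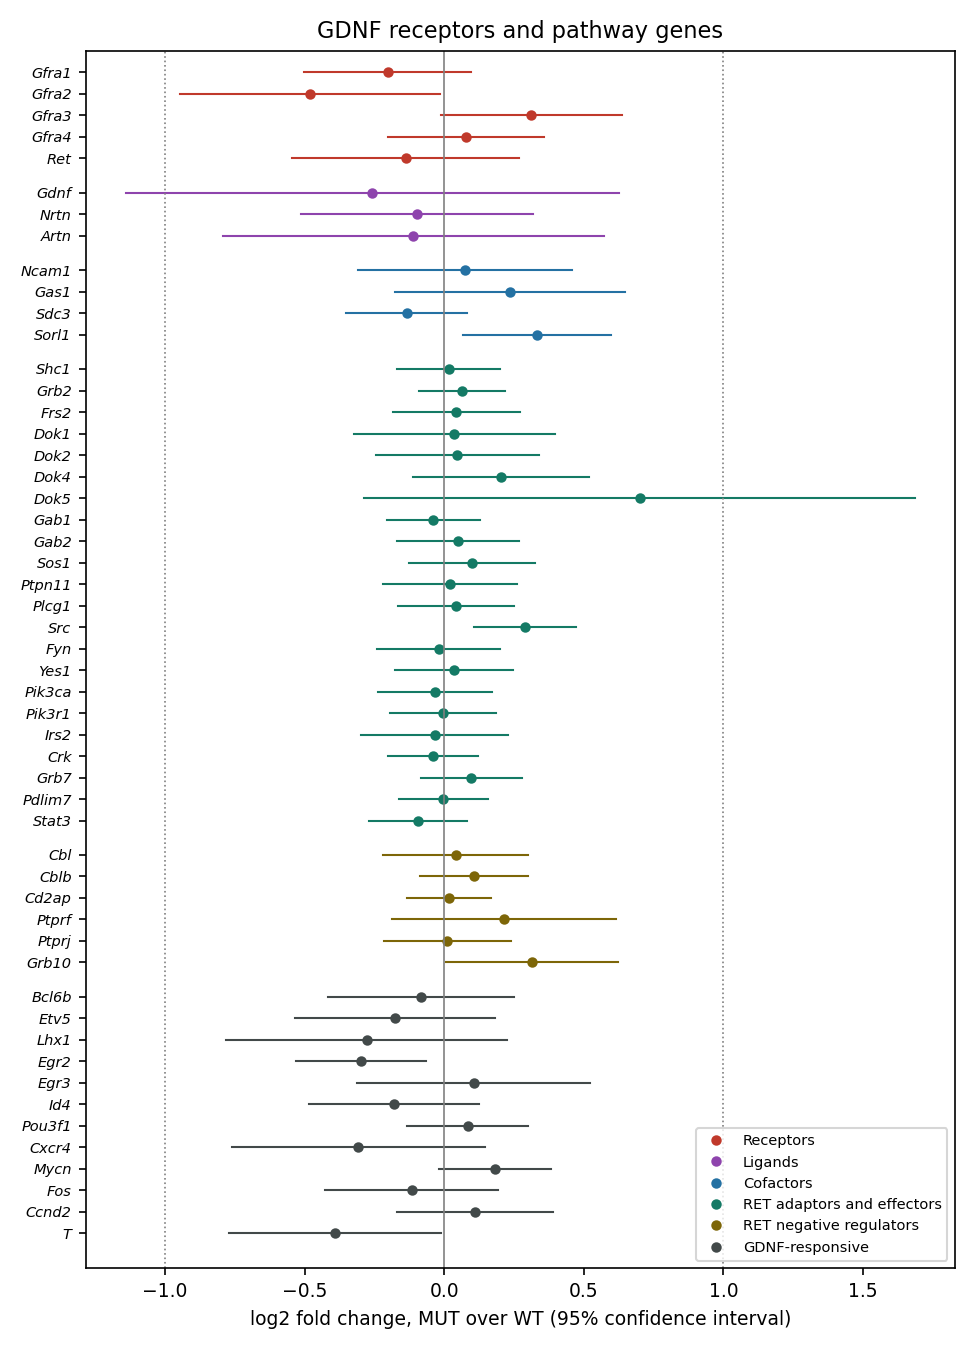
Log2 fold change of MUT over WT with its 95% confidence interval from edgeR for the receptor genes and the tested genes of the pathway lists, with dotted lines at 2-fold in either direction. The receptor genes lie between -0.48 and 0.31, and no gene shown passed an FDR of 0.1.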

How the data were processed

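RNA of sorted Aundiff from 3 WT and 3 MUT mice was sequenced as stranded mRNA libraries. For each library the authors deposited a table of unnormalized fragment counts by gene name, obtained with STAR (version not given in the sources used here) and featureCounts 1.6.2 on GENCODE vM17 of GRCm38.p6 with tdTomato added, without regard to strand. Groups and replicate numbers came from the sample labels. In R 4.3.3, edgeR 4.0.16 applied TMM, filterByExpr and its quasi-likelihood test of genotype, without other terms, and Benjamini-Hochberg adjustment over all 19656 tested genes at an FDR of 0.1. DESeq2 1.42.0, the tool of the study, and limma 3.58.1 (voom) were alternatives. Single values were compared with exact permutation tests over all assignments of the samples (Python 3.11.15, numpy 2.4.6). Levels per kilobase used the exon length in the deposited files. CPM values are TMM-normalized, and correlations used log2 of CPM plus 0.5. The edgeR fit was tested on simulated counts, and the DESeq2 and limma fits were not.

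Same-numbered samples deviated together from their group means (r = 0.31, 0.17 and 0.39 over 10583 genes), so the numbers were taken to pair the samples, although WT replicate 2 with MUT replicate 1 had r = 0.32. The labels give only replicate numbers, and the study says that controls were littermates but not which mice were paired. That pairing is therefore an assumption that rests on this check. Unless a block is named, edgeR p-values, intervals and shares of all genes are from the fit without it. With the block 1297 genes had an unadjusted p under 0.05 in edgeR. Unadjusted edgeR p-values with it were 0.0755 for *Gfra1*, 0.0263 for *Gfra2*, 0.0508 for *Gfra3*, 0.555 for *Gfra4* and 0.235 for *Ret*. They were 0.00239 for *Src*, 0.00256 for *Sorl1*, 0.00276 for *Egr2* and 0.00197 for *Grb10*. The limit given for 0 counts covers counting error only, while the confidence intervals of fold changes include the spread between replicates. Replicates of a group differed by 4.67 to 27.6 times the counting variance (chi-square per degree of freedom), so none looked like a single library deposited again.

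The receptor genes and the gene lists were chosen with earlier results of these data known. The genes named were the receptors, tdTomato, *Hras*, the ligands, *Ncam1*, *Gfral*, the FGF receptors, the 5 genes closest to *Gfra1* and to *Ret*, and, of each pathway list, genes called, genes with non-overlapping groups (at most 4) and the 3 most abundant. *Grb10*, *T* and *Mycn* were added after their values were seen.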

Additional observations from a re-analysis of the deposited data

How the results depend on the processing

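Over 13 alternatives the log2 fold change lay between -0.33 and -0.14 for *Gfra1*, -0.68 and -0.33 for *Gfra2*, and 0.24 and 0.38 for *Gfra3*, and no receptor gene passed an FDR of 0.1 (lowest adjusted p 0.803, 0.280 and 0.729, with *Gfra4* at 0.913 and *Ret* at 0.935). With 1 sample left out *Ret* ran from -0.31 to 0.0047, positive without WT replicate 1, and *Gfra4* from -0.0024, without MUT replicate 1, to 0.14. The number of genes called, 2, became 9 with DESeq2, 4 with limma voom, 5 without a filter, 1 at an FDR of 0.05 and 0 under a filter of 10 or more counts per sample, which left 479 genes at an unadjusted p under 0.05 in edgeR. It was 13 in edgeR and 55 in DESeq2 with the replicate block, which called no receptor or pathway gene, and 0 to 6 with 1 sample left out. The 0 came without MUT replicate 2, where 292 genes had an unadjusted p under 0.05, 1 gene was called without MUT replicate 1, 5 without WT replicate 3 and 6 without MUT replicate 3. With 5 samples the sign-flip test cannot go below 0.0625, and the log2 steps were 1.15 to 1.20 for *Ret* over *Gfra1*, 1.93 to 2.05 for *Gfra1* over *Gfra4*, 0.59 to 0.71 for *Gfra4* over *Gfra3* and 0.999 to 1.27 for *Gfra3* over *Gfra2*, the last 0.35 without division by exon length. Chosen after seeing the data, leaving out WT replicate 3 or MUT replicate 3 gave 0 to 1 genes with an unadjusted p under 0.05 in edgeR among other receptors and among negative regulators, 2 among adaptors and 1 to 2 among GDNF-responsive genes. Over all tested genes, in either direction, the share with such a p was 3.63% without WT replicate 3 and 8.64% without MUT replicate 3. The 2 adaptors were 9.09% of their list in each of these fits. Where a value moved, the cause was not tested.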
